A study of Mus musculus with 2 samples.

Results

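The cathepsins are proteases of the lysosome, and 10 of their genes were followed here by symbol (*Ctsa*, *Ctsb*, *Ctsd*, *Ctsf*, *Ctsh*, *Ctsk*, *Ctsl*, *Ctso*, *Ctss* and *Ctsz*) among the 23628 genes listed for each library. All 10 symbols were listed. The samples are 2 RNA-sequencing libraries (replicates 1 and 2) of *Sox9*GFPHi chondrospheres from mouse. These are colonies grown in methylcellulose at low oxygen from GFP-high femoral head cells of *Sox9* IRES-EGFP reporter pups at postnatal day 7, a mouse in which cells that transcribe *Sox9* also make GFP. The sort left out cells with CD45, CD31 or Ter119 on their surface, the medium held serum and the growth factors FGF2, BMP4, IGF1, LIF and TGF-β1, and both libraries share all of this. The methods treat each pup as a biological replicate, but nothing says which pups gave which library, and with 1 condition there is no test between groups.

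Lysosomal proteases are made as inactive precursors, tagged with mannose 6-phosphate in the Golgi, delivered to the acid lysosome and cut there into active enzymes. Most cathepsins are cysteine proteases related to papain, cathepsin D is an aspartic protease and cathepsin A a serine carboxypeptidase. Chondrocytes use them to degrade matrix that they take up and, when the enzymes are secreted, matrix around the cell. Other members are known mainly from cells of the blood lineage: cathepsin S from antigen-presenting cells, cathepsins G, C and W from granulocytes and lymphocytes, and cathepsin K from osteoclasts, although connective tissue cells can make it too.

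Values are CPM, the reads of a gene scaled to a library total of 1000000, and wherever a pair of values is given, that of replicate 1 comes first. The steps between low values implied that 43300000 and 42200000 reads fell on genes, and 65.5% and 64.2% of the values under 2 CPM were whole multiples of that step within 0.05 of a step. The smallest level read as signal here, 3 reads, was 0.0693 CPM in the first library and 0.0712 CPM in the second, a floor for counting error alone. The 10 highest genes made up 43.4% of replicate 1 and 34.7% of replicate 2, so the CPM of every other gene depends on them. All 8 chondrocyte markers of a fixed list were present in both libraries, from *Sox9* at 252 and 279 CPM to *Col2a1* at 148953 and 100682 CPM, although *Matn3*, which encodes a cartilage matrilin, had 741 and 53.1 CPM. In bulk libraries, fewer cells of a type and less RNA per cell cannot be told apart.

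The *Sox9*GFPHi chondrospheres had RNA of 9 of the 10 cathepsin genes, and *Ctsd* alone took most of their reads. *Ctsd*, on chromosome 7 of GRCm38 from 142375911 to 142388038, encodes cathepsin D, the main aspartic endopeptidase of the lysosome. With 5330 and 4133 CPM (4732 ± 846, mean ± SD, n = 2), it ranked 13 by mean among all genes. The 10 genes together held 6353 and 5431 CPM, which is 0.635% and 0.543% of the totals. Of this sum, *Ctsd* took 83.9% in replicate 1 and 76.1% in replicate 2. Without *Ctsd*, the other members summed to 1023 and 1298 CPM as deposited, of which *Ctsl* supplied 120 and 303 CPM.

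The *Ctsd* value is uncertain by its overlap with *Gm49369*, a gene on the same strand that shares 808 exonic bases with it. Of the stretches of 50 bases (the read length) in the longest coding transcript of *Ctsd*, 36.6% also occur in transcripts of *Gm49369*, and reads from them cannot be assigned to either gene by sequence. *Gm49369* was listed at 344 and 382 CPM, or 6.07% and 8.46% of the sum of both genes. Adding these reads to *Ctsd* could only raise its share of the cathepsin reads. How many of the reads listed under *Ctsd* came from *Gm49369* was not computed.

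The promoter of *Ctsd* is shown because the gene took most of the cathepsin reads, and with it the 3 other members whose promoter holds the E-box CACGTG, the core of the sites that the lysosomal regulators TFEB, TFE3 and MITF are known to bind. The sequences are those of RefSeq on GRCm38.p6, 5′ to 3′ on the strand of the gene, with the E-box in capitals. *Ctsd* is given as the 250 bases before its RefSeq start (chr7:142387828-142388077, minus strand), and the others as 40 bases around a match, *Ctsa* at chr2:164833733-164833772 on the plus strand, *Ctsf* at chr19:4855069-4855108 on the plus strand and *Ctsl* at chr13:64370731-64370770 on the minus strand. The gene spans in this text are from GENCODE, and the RefSeq starts used for *Ctsd*, *Ctsa*, *Ctsf* and *Ctsl* lie inside them. So do part of the *Ctsd* stretch, with the E-box nearer the start, and the whole *Ctsa* and *Ctsl* stretches.
Ctsd: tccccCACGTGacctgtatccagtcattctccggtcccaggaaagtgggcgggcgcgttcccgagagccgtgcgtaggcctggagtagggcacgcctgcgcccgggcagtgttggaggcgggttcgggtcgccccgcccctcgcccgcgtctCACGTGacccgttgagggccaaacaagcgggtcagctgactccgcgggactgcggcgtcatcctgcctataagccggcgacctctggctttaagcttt
Ctsa: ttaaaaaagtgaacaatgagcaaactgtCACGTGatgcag
Ctsf: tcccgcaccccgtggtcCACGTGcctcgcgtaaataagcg
Ctsl: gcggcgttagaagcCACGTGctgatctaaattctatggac

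The E-box, which reads the same on both strands, begins 245 and 98 bases before the RefSeq start of *Ctsd*, 79 bases before that of *Ctsf* and 236 bases before that of *Ctsl*. In *Ctsa* it begins 12 bases before the second of its annotated starts and again at base 6 from that start, while the promoter of the first start has none. Among the 8 members with a RefSeq promoter (*Ctsb* and *Ctsh* had no entry), 4 held the E-box, against 8.09% of 27025 genes in the table, 6 of 23 other lysosomal hydrolases (26.1%) and 5 of 13 genes of the lysosomal membrane and acidification (38.5%). The longer form TCACGTGA, which contains the E-box, was found in *Ctsd* and *Ctsa*, 2 of the 8, against 1.12% of all genes. It was found in 1 of the 23 hydrolases and in 4 of the 13 membrane and acidification genes. These are matches of letters in a window, the members are few, and nothing about binding was measured.

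Cathepsins B, A and L, which most cells make, were present in both libraries. *Ctsb* (chromosome 14 from 63122462 to 63145923), a cysteine endopeptidase that also trims dipeptides from the ends of proteins, had 380 and 372 CPM. *Ctsa* (chromosome 2 from 164832873 to 164841032), which also holds beta-galactosidase and neuraminidase in a stable complex, had 235 and 245 CPM. Both genes differed little between the libraries on this scale. *Ctsl* (chromosome 13 from 64359337 to 64370890), a cysteine endopeptidase, had 120 and 303 CPM, a gap between the libraries far wider than for *Ctsb* and *Ctsa*. About 6.90% of the stretches of 50 bases in its longest coding transcript occur in transcripts of other genes. Exons of *Ctsl* overlap those of *Gm47123* on the opposite strand, which was listed at 0 in both libraries, by 1742 bases. They also overlap *Gm49230*, a pseudogene on the same strand without a listed value, by 395 bases. Exons of *Ctsb* overlap those of *Fdft1* on the opposite strand by 774 bases, and those of *Ctsa* overlap *Pltp* by 495 and *Neurl2* by 324 bases, with 11.0 and 17.4 CPM for *Fdft1*, 4.12 and 2.40 CPM for *Pltp*, and 0.347 and 0.751 CPM for *Neurl2*.

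The cysteine exopeptidases Z and H and the endopeptidases F and O had fewer reads. *Ctsz* (chromosome 2 from 174427493 to 174439039), which encodes the carboxypeptidase cathepsin Z, had 75.8 and 97.2 CPM. *Ctsh* (chromosome 9 from 90054152 to 90076089), which encodes an aminopeptidase, had 46.9 and 104 CPM. *Ctsf* (chromosome 19 from 4855130 to 4860918) had 49.8 and 27.9 CPM, lower in the library where *Ctsh* was higher. *Ctso* (chromosome 3 from 81932601 to 81956725), a little studied cysteine member, had 3.90 and 5.77 CPM, which rest on about 169 and 243 reads.

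**Figure D1:**
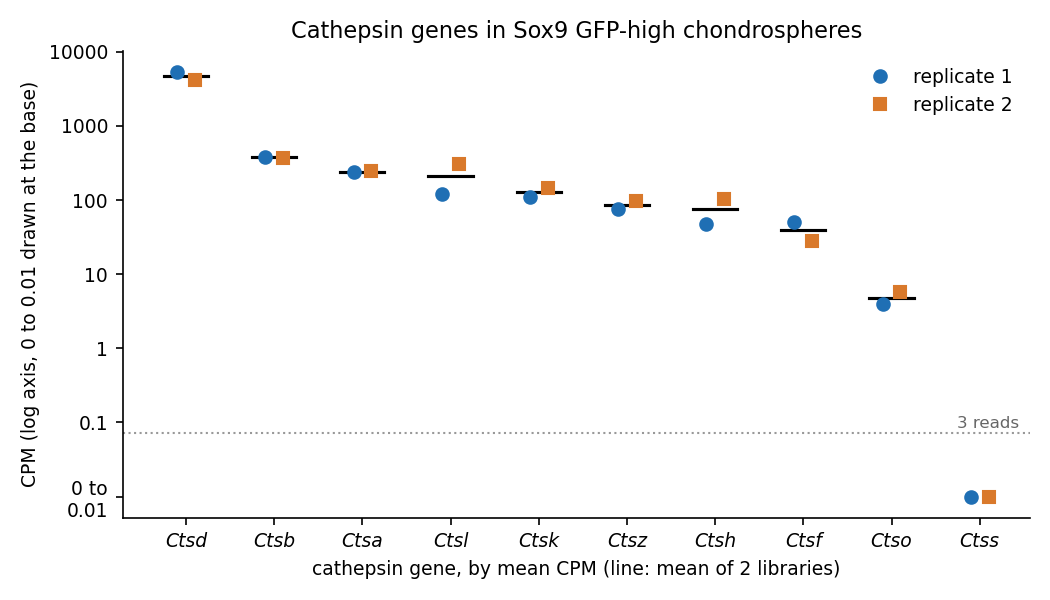
CPM of the 10 cathepsin genes in replicate 1 (circles) and replicate 2 (squares), ordered by mean, on a log axis with values of 0 to 0.01 drawn at the base; the short lines are means of the 2 libraries and the dotted line is the level of 3 reads. *Ctsd* lies at 5330 and 4133 CPM, 8 genes lie between 3.90 and 380 CPM, and *Ctss* is listed at 0.

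*Ctsk* and *Ctss* are neighbours on chromosome 3 but only the first had reads. *Ctsk* (from 95499256 to 95509362), which encodes the cathepsin known for cutting the collagen triple helix, had 111 and 144 CPM (127 ± 22.9, mean ± SD, n = 2). *Ctss* (from 95526786 to 95556403) was listed at 0 in both libraries, below the level of 3 reads. The 2 genes have the same strand and 17.4 kb between them. Neither shares a stretch of 50 bases with transcripts of another gene, so their values do not rest on reads divided among copies. The listed protein-coding genes on either side were present, with *Arnt* at 57.2 and 53.9 CPM and *Golph3l* at 10.3 and 12.7 CPM.

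**Figure D2:**
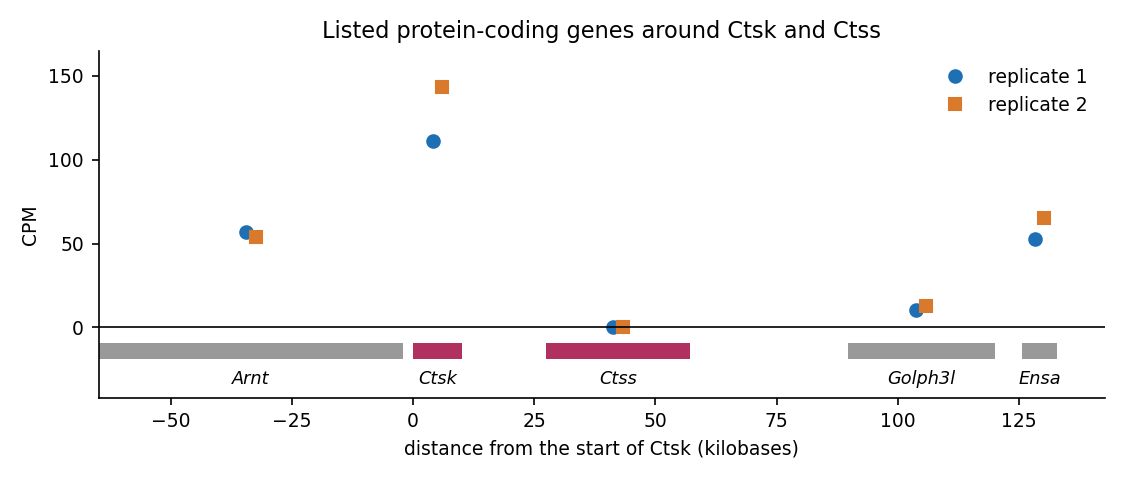
CPM of the listed protein-coding genes around *Ctsk* and *Ctss* (circles for replicate 1, squares for replicate 2), plotted at the middle of each gene, with the span of the genes drawn below against the distance from the start of *Ctsk* in kilobases. *Ctsk* stands at 111 and 144 CPM and *Ctss* at 0, while *Arnt*, *Golph3l* and *Ensa* around them are present in both libraries.

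The 250 bases before the starts of these neighbours are shown for the contrast in level, *Ctsk* at chr3:95498960-95499209 and *Ctss* at chr3:95526536-95526785, both on the plus strand and from the same table. Neither holds the E-box, so nothing is in capitals. Over the full window the G and C content was 43.7% for *Ctsk* and 44.0% for *Ctss*, against 67.3% for *Ctsd*.
Ctsk: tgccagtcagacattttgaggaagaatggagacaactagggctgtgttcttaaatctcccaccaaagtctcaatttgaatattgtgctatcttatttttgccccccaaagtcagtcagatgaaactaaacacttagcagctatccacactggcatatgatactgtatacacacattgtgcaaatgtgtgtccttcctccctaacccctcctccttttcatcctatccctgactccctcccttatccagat
Ctss: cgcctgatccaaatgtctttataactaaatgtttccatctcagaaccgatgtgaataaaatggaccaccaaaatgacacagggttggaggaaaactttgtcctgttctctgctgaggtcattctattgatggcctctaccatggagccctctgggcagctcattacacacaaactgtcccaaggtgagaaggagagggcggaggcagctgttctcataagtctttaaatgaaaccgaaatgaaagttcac

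Since CPM grows with the length of a transcript, levels of different genes were compared per kilobase of annotated exons. On that scale *Ctsd* had 2013 ± 360 CPM per kilobase, *Ctsk* 84.3 ± 15.1, *Ctsb* 62.1 ± 0.932, *Ctsz* 60.0 ± 10.5, *Ctsa* 50.9 ± 1.46, *Ctsl* 32.6 ± 19.9, *Ctsh* 16.8 (10.4 and 23.2 in the replicates), *Ctsf* 7.71 ± 3.08 and *Ctso* 0.944 ± 0.257 (means ± SD, n = 2 each). The log2 ratio of *Ctsd* to *Ctsk* was 4.94 in replicate 1 and 4.21 in replicate 2, far above its SD of 0.52. The neighbours *Ctsb* and *Ctsz*, *Ctsa* and *Ctsl*, and *Ctsh* and *Ctsf* did not differ beyond the SD of their log2 ratio, and the other neighbours did.

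The place of *Ctsk* depended on how length was taken. The log2 ratio of *Ctsk* to *Ctsb* was 0.43 ± 0.28 (SD, n = 2) per kilobase of exons, but 0.079 with the longest coding transcript and -1.53 with the longest coding sequence as the length. The annotated exons cover 6051 bases of *Ctsb* and 6489 of *Ctsl* against 1512 of *Ctsk*, while the coding sequences are close to each other, at 1017, 1002 and 987 bases. *Ctsk* to *Ctsl* was 1.51 ± 0.68 per kilobase of exons and -0.57 per coding sequence. *Ctsd* was first and *Ctso* last of the 9 under each of the 3 lengths, and the middle of the order was not settled.

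**Figure D3:**
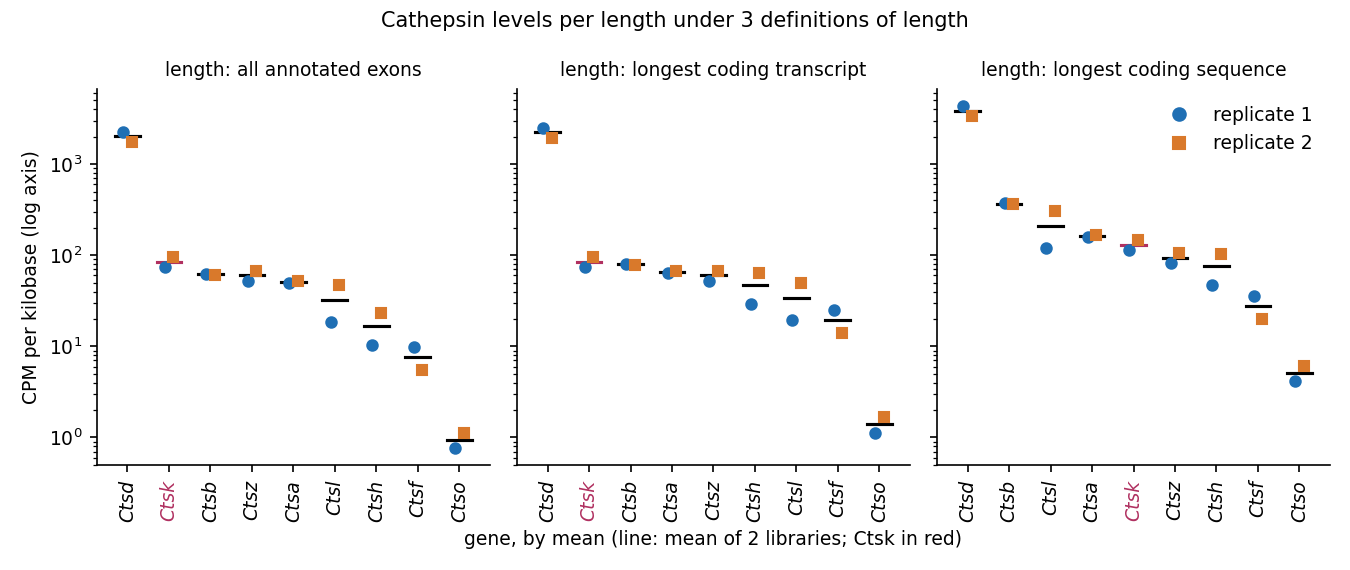
CPM per kilobase (log axis) of the 9 cathepsin genes above 0, ordered by mean, with length taken as all annotated exons, the longest coding transcript or the longest coding sequence; circles are replicate 1, squares replicate 2 and lines the means. *Ctsd* stands first in each panel and *Ctso* last, while *Ctsk* (red) is second in 2 panels and lies below *Ctsb*, *Ctsl* and *Ctsa* with the coding sequence as length.

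Among the cathepsins of blood-derived cells outside the members, *Ctsg*, which encodes the granule serine protease of neutrophils, and *Ctse*, an aspartic protease of lymphoid and stomach cells, were listed at 0 in both libraries. *Ctsc*, which encodes the dipeptidyl peptidase that activates granule proteases and is also found outside blood cells, had 4.55 and 14.9 CPM. *Ctsw*, known from cytotoxic lymphocytes, had 8.34 and 4.60 CPM. Of its exonic bases, 9 overlap *Fibp* on the opposite strand, which had 18.4 and 20.0 CPM. Less the median of all genes, the log2 ratio of the second library to the first was 1.38 for *Ctsc* and -1.15 for *Ctsw*. The napsin gene *Napsa* was at 0.0693 and 0.0474 CPM, at most 3 reads. The cathepsin-like *Tinagl1*, whose product has no protease activity, had 1.52 and 67.1 CPM, a centred log2 ratio of 5.07.

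Markers of blood-derived cells were at or near 0 in the *Sox9*GFPHi chondrospheres. *Ptprc*, which encodes CD45 and was a target of the sort, had 0.0231 and 0.0474 CPM, or 1 and 2 reads. Of the 4 pan-leukocyte markers, 2 reached 3 reads in each library, and the list summed to 6.10 and 1.02 CPM, mostly from *Laptm5*, a lysosomal membrane protein gene, at 5.73 and 0.807 CPM. Of the 14 macrophage markers, 3 reached 3 reads in replicate 1 and 4 in replicate 2, with sums of 5.98 and 6.86 CPM. The highest were *Cd14* at 2.68 and 3.42 CPM and *Cd68* at 2.56 and 2.40 CPM, and *Adgre1*, *Tyrobp*, *Fcer1g*, *C1qa*, *C1qb*, *C1qc*, *Mrc1* and *Itgam* were listed at 0. The cathepsins other than *Ctsd* summed to 1023 and 1298 CPM, but these sums are of different genes and were not compared per length. The part of blood-derived cells in the cathepsin levels was not tested.

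The partner of cathepsin S in antigen presentation was also near 0. *Cd74*, the invariant chain that cathepsin S cuts, had 0.0462 and 0.0949 CPM. The class II gene *H2-Aa* had 0.231 and 0.0237 CPM and *H2-Eb1* had 0.462 and 0.190 CPM. *Ciita*, the regulator of class II genes, was listed at 0 and at 0.190 CPM. In contrast, *H2-Ab1* had 49.4 and 47.2 CPM.

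Neutrophil, lymphocyte, erythroid and endothelial markers gave the same picture. Of the 7 neutrophil markers, *Elane*, *Mpo*, *Prtn3*, *S100a8*, *S100a9* and *Ngp* were listed at 0 in both libraries, and *Camp* was at the level of 3 reads in both. The 3 listed cytotoxic lymphocyte markers summed to 0 and 0.356 CPM, all of it *Prf1*, with *Nkg7* and *Gzmb* at 0. Erythroid markers summed to 0.0930 and 0.120 CPM, with *Hba-a1* at 0.0924 CPM and at 0 and *Hbb-bs* at 0 and 0.0712 CPM. Endothelial markers summed to 0.231 and 0.166 CPM, all of it *Pecam1*, with *Cdh5*, *Kdr* and *Tek* at 0.

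*Ctsk* was set beside the osteoclast markers, since it is the leading protease of that cell. *Ocstamp* and *Dcstamp*, which osteoclast precursors need to fuse, were listed at 0 in both libraries, and *Oscar* was at 0.347 and 0.356 CPM. *Acp5*, the tartrate-resistant acid phosphatase gene, had 6.07 and 0.712 CPM, while *Ctsk* had 111 and 144 CPM. Less the median of all genes, the log2 ratio of the second library to the first was 0.06 for *Ctsk* and -3.23 for *Acp5*. *Mmp9* was at 0.0693 CPM and at 0, and *Tnfrsf11a*, which encodes the receptor RANK, at 0.0924 CPM and at 0.

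The sum of the 9 listed osteoclast markers, 81.6 and 347 CPM, came mostly from *Nfatc1* and *Itgb3*, which are not specific to osteoclasts. *Nfatc1*, a transcription factor also of other cells, had 55.5 and 235 CPM. *Itgb3*, an integrin of many cell types, had 18.8 and 108 CPM. *Atp6v0d2*, a proton pump subunit of osteoclasts, had 0.809 and 2.97 CPM. Against a centred 2-fold, these 3 were higher in replicate 2, at log2 ratios of 1.77, 2.22 and 1.45, and *Acp5* was lower. The shares among all genes were 7.43% higher and 6.06% lower. The part of osteoclasts in the level of *Ctsk* was not tested.

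**Figure D4:**
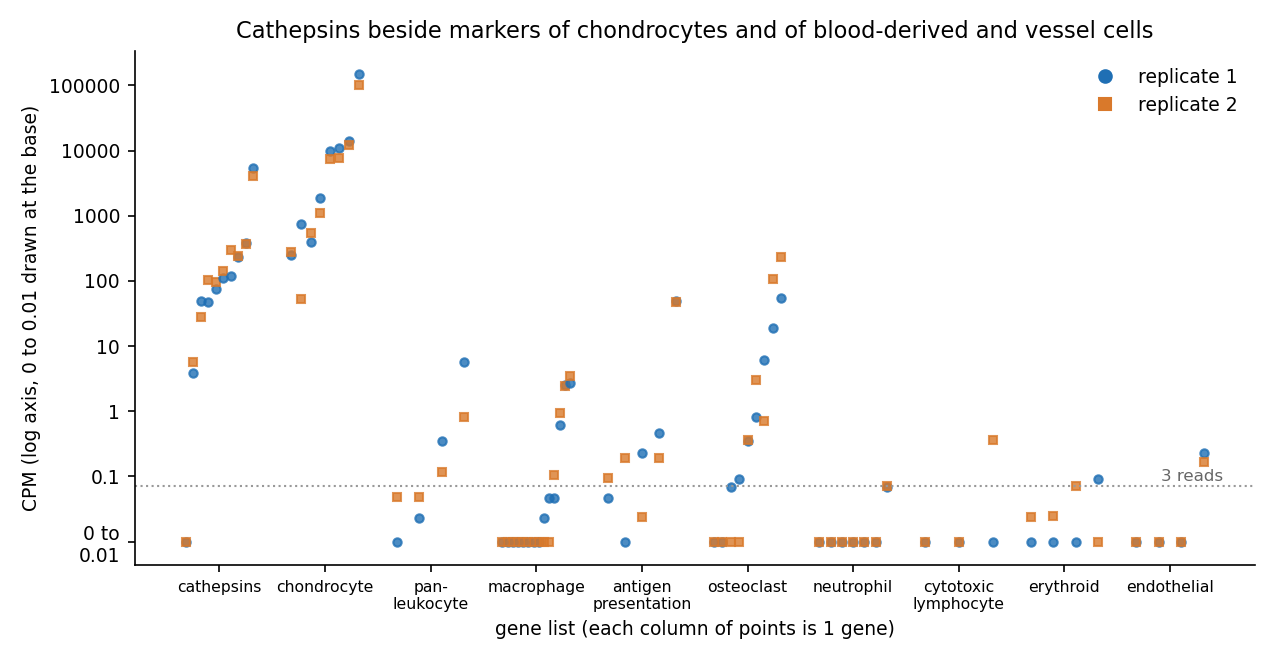
CPM of the cathepsins and of marker lists (log axis, values of 0 to 0.01 drawn at the base), with a column of points for each gene, circles for replicate 1 and squares for replicate 2; the dotted line is the level of 3 reads. Chondrocyte markers reach 148953 CPM, most leukocyte, macrophage, neutrophil, lymphocyte, erythroid and endothelial markers lie at or near the base, and *H2-Ab1*, *Nfatc1* and *Itgb3* stand above the rest of their lists.

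The cathepsins were also compared between the libraries. Across the 12631 genes that averaged 1 CPM or more, log2 ratios of replicate 2 over replicate 1 had a median of 0.30 and an SD of 0.83, so they are given less this median. Of the 9 members at that level (*Ctss* fell short), *Ctsl* was past 2-fold higher in replicate 2, with a centred log2 ratio of 1.03, and *Ctsf* was past 2-fold lower, at -1.14. Among all genes 7.43% were past 2-fold higher and 6.06% lower, so 1 of 9 in each direction is close to the background and no result about the cathepsins. *Ctsh* lay just inside 2-fold at 0.85 and *Ctsd* was at -0.67, while *Ctsa*, *Ctsb*, *Ctsk*, *Ctso* and *Ctsz* lay between -0.33 and 0.25. Of these, *Ctsa* changed sign with the scaling, from 0.06 on the CPM as deposited to -0.25 after centring. The median of the 9 was 0.05.

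Counting error was at most 0.052 on the log2 scale for *Ctsl*, *Ctsf* and *Ctsh*, and 0.14 for *Ctso*, the member with the fewest reads. The scaling moved the calls: on the CPM as deposited, *Ctsl* (1.33) and *Ctsh* (1.15) were past 2-fold higher and no member was lower, against 11.4% higher and 3.71% lower among all genes. The lower *Ctsf* was then at -0.84. Higher genes made up 55.0% of all genes past 2-fold after centring and 75.4% without it.

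Other markers moved between the same libraries. Of the 5 osteoblast markers, 4 averaged 1 CPM or more, and *Sp7*, *Alpl* and *Dmp1* were past 2-fold higher in replicate 2. Among all genes, 7.43% were past 2-fold higher and 6.06% lower. The list summed to 4.86 and 52.7 CPM, and *Dmp1*, at 0.116 and 40.4 CPM, made up most of the sum in replicate 2. The fibroblast markers summed to 4915 and 3652 CPM, with *Dcn* past 2-fold lower in replicate 2 under either scaling and *Col1a1* only after centring. The part of any of these cells in the higher *Ctsl* and *Ctsh* and the lower *Ctsf* of replicate 2 was not tested.

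**Figure D5:**
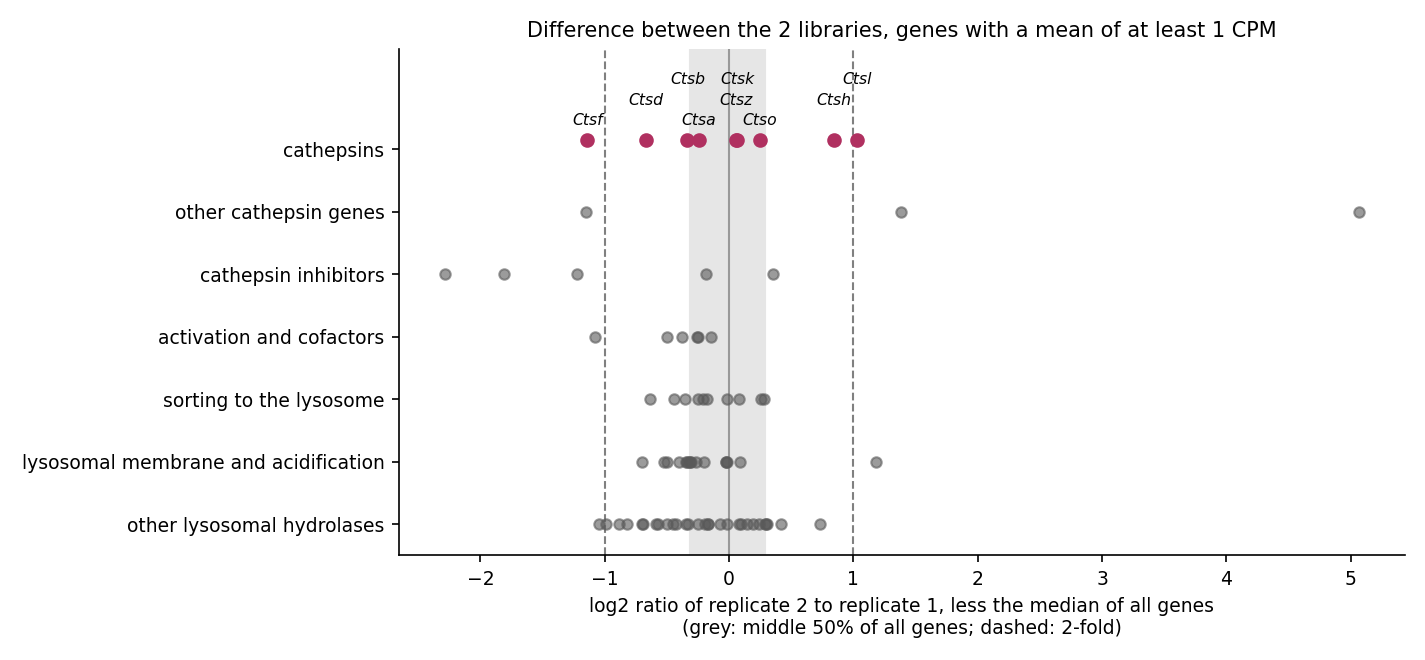
Log2 ratio of replicate 2 to replicate 1, less the median of all genes, for the 9 cathepsins that averaged 1 CPM or more (red, named) and for companion genes at that level (grey points); the grey band holds the middle 50% of all genes and the dashed lines mark 2-fold. *Ctsl* lies beyond the upper line and *Ctsf* beyond the lower (though not on the CPM as deposited). Below -1 lie 3 inhibitor genes and 6.06% of all genes.

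Inhibitors of the cathepsins were led by *Cst3*, which encodes the secreted inhibitor cystatin C. It had 913 and 322 CPM, a centred log2 ratio of -1.81. Per kilobase of exons, *Cst3* exceeded *Ctsk*, the highest cysteine cathepsin on that scale, 9.79-fold in replicate 1 and 2.67-fold in replicate 2. *Cst6*, which encodes cystatin M, had 29.4 and 7.38 CPM, at -2.29. Among intracellular inhibitors, *Cstb* had 22.3 and 35.2 CPM, *Serpinb6a* 109 and 118 CPM, and *Serpinb1a* 6.62 and 3.46 CPM, at -1.22. Of the 12 listed inhibitor genes, 5 averaged 1 CPM or more. After centring, 3 of these were past 2-fold lower in replicate 2 and none higher, against 6.06% lower and 7.43% higher among all genes. With 5 genes and 2 libraries of 1 condition, this is no result about the inhibitors. On the CPM as deposited, *Serpinb1a* was within 2-fold. *Cst7*, the cystatin of leukocytes, the stefin A genes *Stfa1*, *Stfa2*, *Stfa3* and *Csta1*, and *Serpina3g* were listed at 0.

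The next list holds genes that activate or hold cathepsins, together with others such as *Psap* and *Ppt1*. These genes differed less, and all but *Cd74* averaged 1 CPM or more. *Psap*, the precursor of the saposins, had 870 and 973 CPM, and *Ppt1*, a thioesterase that removes fatty acids from proteins, 97.2 and 100 CPM. *Lgmn*, which encodes the asparaginyl endopeptidase that cuts several cathepsins into their mature chains, had 52.0 and 49.4 CPM. *Glb1*, the partner of cathepsin A, had 48.5 and 50.4 CPM. *Neu1*, its other partner, had 42.1 and 24.6 CPM, at a centred log2 ratio of -1.08, and was the only one of the 6 genes of that list that averaged 1 CPM or more that was past 2-fold, a call lost on the CPM as deposited.

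The route to the lysosome was also present. Here the highest and lowest genes of a list, by CPM and not per length, only stand for its range. *Igf2r*, the large mannose 6-phosphate receptor, had 501 and 752 CPM, *Scarb2* 282 and 224 CPM and *Nagpa*, which uncovers the mannose 6-phosphate tag, 12.5 and 13.0 CPM. None of the 10 sorting genes was past 2-fold. Of the 16 genes of the lysosomal membrane and acidification, led by *Lamp1* at 763 and 713 CPM and *Cd63* at 402 and 399 CPM, *Atp6ap2*, a pump accessory gene, was past 2-fold higher at 1.18. *Ostm1* was their lowest at 7.69 and 9.37 CPM. Of the 29 entries for other hydrolases, none was past 2-fold higher. *Gaa*, the acid glucosidase, led them at 527 and 368 CPM with *Hexa* at 239 and 281 CPM, and *Dnase2a* was lowest at 5.78 and 8.46 CPM. The medians of these 3 lists were -0.20, -0.31 and -0.20, against 0 for all genes by construction and 0.05 for the cathepsins.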

How the data were processed

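RNA was measured in 2 libraries of *Sox9* GFP-high chondrospheres, a single condition. Per the labels and the study's methods, the authors aligned the reads with STAR 2.7.3a to GRCm38 and the GENCODE M25 genes in Partek (version 10.0.21.0801), assigned them to genes by the Partek E/M method with default settings, and deposited CPM (reads of a gene scaled to a library total of 1000000) with 0.0001 added to each value. This offset was subtracted. The strand setting for counting is not given in the sources used here.

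From the CPM, the mean, the SD and the log2 ratio of replicate 2 to replicate 1 were computed, the latter with a pseudocount of 0.1 CPM and less the median of the 12631 genes averaging 1 CPM or more. Such ratios understate the difference of low genes. A gene was counted as past 2-fold where this centred log2 ratio exceeded 1 in size. No test was made, as the libraries are of 1 condition, and whole reads were not recovered, so no count model was used and no interval is given for a share. Depth was inferred from the most common step between values under 2 CPM.

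Levels between genes were divided by length: all annotated exons, or, as alternatives, the longest coding transcript and the longest coding sequence. Gene models and transcripts come from GENCODE M21, an earlier release than the authors used on the same build. Promoters (250 bases before and 50 after each start) come from RefSeq on GRCm38.p6, and 8 of the 10 members matched. The steps were tested on simulated data. Python 3.11.15, numpy 2.4.6, pandas 2.3.3 and matplotlib 3.10.9 were used.

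The members and the 20 companion lists were chosen with earlier results of these data known. Of each list, the genes named are the 2 highest and the lowest by mean, those past 2-fold and those at 0. All 10 members and every other listed cathepsin gene are named. Other genes were named after their values were seen. Among the lists, the lysosomal regulators, autophagy genes and matrix substrates were described only in the closing section. Some genes of these lists are not reported here.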

Additional observations from a re-analysis of the deposited data

How the results depend on the processing

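For 41 results, 163 values were recomputed with 1 choice changed. Of these, 114 stayed within the SD or, for ratios between libraries, within a margin wider than the counting error (within 1.5 times for counts). Another 45 moved by more and 4 reversed. Leaving out either library moves a mean of 2 by less than its SD by arithmetic, which covers 40 of the 114, and such a change gives no ratio between libraries.

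The share of the CPM total held by the cathepsins, 0.589%, was 0.973% without the 10 highest genes in the total and 0.116% without *Ctsd*. The median log2 ratio of the cathepsins between the libraries, 0.05, was 0.36 without centring and -0.11 with the minimum mean at 10 CPM, which drops *Ctso*. Without centring, 2 cathepsins were past 2-fold higher and 0 lower.

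Log2 ratios within a library depended on length. Without division by length, *Ctsk* to *Ctsb* reversed to -1.57 and *Ctsk* to *Ctsl* to -0.59, and against *Ctsb* the values were 3.64 for *Ctsd*, -2.13 for *Ctsz* and -0.65 for *Ctsa*. With the longest coding transcript, they were 0.079 for *Ctsk*, -0.41 for *Ctsz*, -0.87 for *Ctsh* and -2.07 for *Ctsf*. With the longest coding sequence, an alternative chosen after seeing the data, *Ctsk* to *Ctsb* reversed to -1.53 and *Ctsk* to *Ctsl* to -0.57, with 3.37 for *Ctsd*, -1.98 for *Ctsz*, -1.18 for *Ctsa* and -3.78 for *Ctsf*. Lengths are those of the annotation, and which transcripts the cells made was not tested. Adding *Gm49369* to *Ctsd*, and leaving *Ctsd* out of the share, were also chosen after seeing the data. No fold is given against *Ctss*, which was listed at 0, and depth limits its level only to below 3 reads.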

Other observations

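Regulators of lysosomal genes and autophagy genes were listed in the same chondrospheres. *Tfeb* had 10.6 and 11.0 CPM, *Tfe3* 37.1 and 52.7 CPM and *Mitf* 9.80 and 7.83 CPM, while *Tfec*, the family member of macrophages, was listed at 0. *Bhlhe40*, a basic helix-loop-helix factor, was the highest of that list at 63.7 and 93.0 CPM. Of the 11 regulators that averaged 1 CPM or more, *Rragd*, a GTPase that carries nutrient signals to the lysosome, was past 2-fold lower in replicate 2, with 9.17 and 3.84 CPM. The autophagy genes were led by the cargo receptor gene *Sqstm1* at 379 and 426 CPM and *Gabarap* at 261 and 303 CPM, with *Atg7* lowest at 9.54 and 11.7 CPM, and none of the 10 was past 2-fold.

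Genes of matrix proteins that cathepsins are known to cut were also highly represented. The 8 genes of that list held 403378 and 307396 CPM in all, led by *Fn1* and *Col2a1*. Of these, *Sparc* was past 2-fold lower in replicate 2 under either scaling and *Col9a1* only after centring. *Col2a1*, *Acan*, *Col9a1*, *Col11a1* and *Comp* are also in the list of chondrocyte markers.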
